A study of Rattus norvegicus with 8 samples.

Results

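The receptor tyrosine kinases through which oligodendrocyte precursor cells read growth factors were taken as 10 genes, found by symbol in the deposited table: Pdgfra, Fgfr1, Fgfr2, Fgfr3, Egfr, Erbb2, Erbb3, Erbb4, Igf1r and Insr. Each matched 1 row of the 32662 in the table. The libraries came from primary cultures of oligodendrocyte precursor cells, the proliferating glia from which myelin-forming oligodendrocytes arise, of the rat strain Sprague Dawley. There were 4 libraries of cells kept for 6 h without oxygen and glucose (OGD, oxygen glucose deprivation), which models ischaemia in a dish, and 4 control libraries incubated for 6 h under normal conditions. Cells of both groups came from mixed glial cultures of the cerebral cortex of pups aged 1 to 2 days, grown with 20% serum, and were collected as the cells that did not adhere. They were then cultured for 4 to 5 days in Neurobasal medium with 2 mM glutamine, 1% antibiotic, 2% B27 and the growth factors FGF and PDGF, each at 10 ng/ml. PDGF and FGF are ligands of members of the set, and the labels do not say whether the medium used during OGD held them.

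Receptor tyrosine kinases span the cell membrane, bind a growth factor outside and phosphorylate tyrosines inside, which starts the RAS-MAP kinase and PI3 kinase-AKT relays. PDGF receptor alpha, activated by PDGF, is the defining mitogen receptor of oligodendrocyte precursors, and FGF receptors act beside it. The ErbB receptors pair with one another: EGFR binds EGF-like ligands, ErbB3 and ErbB4 bind neuregulins, ErbB2 has no known ligand of its own, and ErbB3 has little kinase activity and signals through its partner. The insulin receptor and the IGF-1 receptor are close relatives that share downstream relays and support survival and growth of the lineage.

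Values are FPKM, fragment numbers scaled by gene length and library size, so levels of different genes can be set side by side per length. Total fragment numbers are not given, and steps between low values put the relative depth of the libraries at 0.817 to 1.18, with control replicate 1 set to 1. Genes were tested on log2(FPKM + 1) by limma, and p-values were adjusted by Benjamini-Hochberg over the 11149 rows that reached 1 FPKM in at least 4 libraries. A gene was called at an adjusted p under 0.05. Of the 10 receptors 9 were tested, and Erbb2 was below the filter. Of these 9, 3 rose (Egfr, Fgfr2 and Insr), 3 fell (Erbb3, Pdgfra and Fgfr1) and 3 did not pass (Fgfr3, Erbb4 and Igf1r). Among all tested rows 49.5% were called, 22.7% higher and 26.8% lower, so a count of 6 in 9 members is not far from that background. The sizes of change were wider apart. The median absolute log2 change was 0.66 over the 9 receptors and 0.28 over all tested rows. It is given as a description only, since the members were chosen with earlier results of these data known. Log2 changes of low genes are understated by the added 1. In bulk libraries fewer cells of a type and less RNA per cell cannot be told apart.

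**Figure D1:**
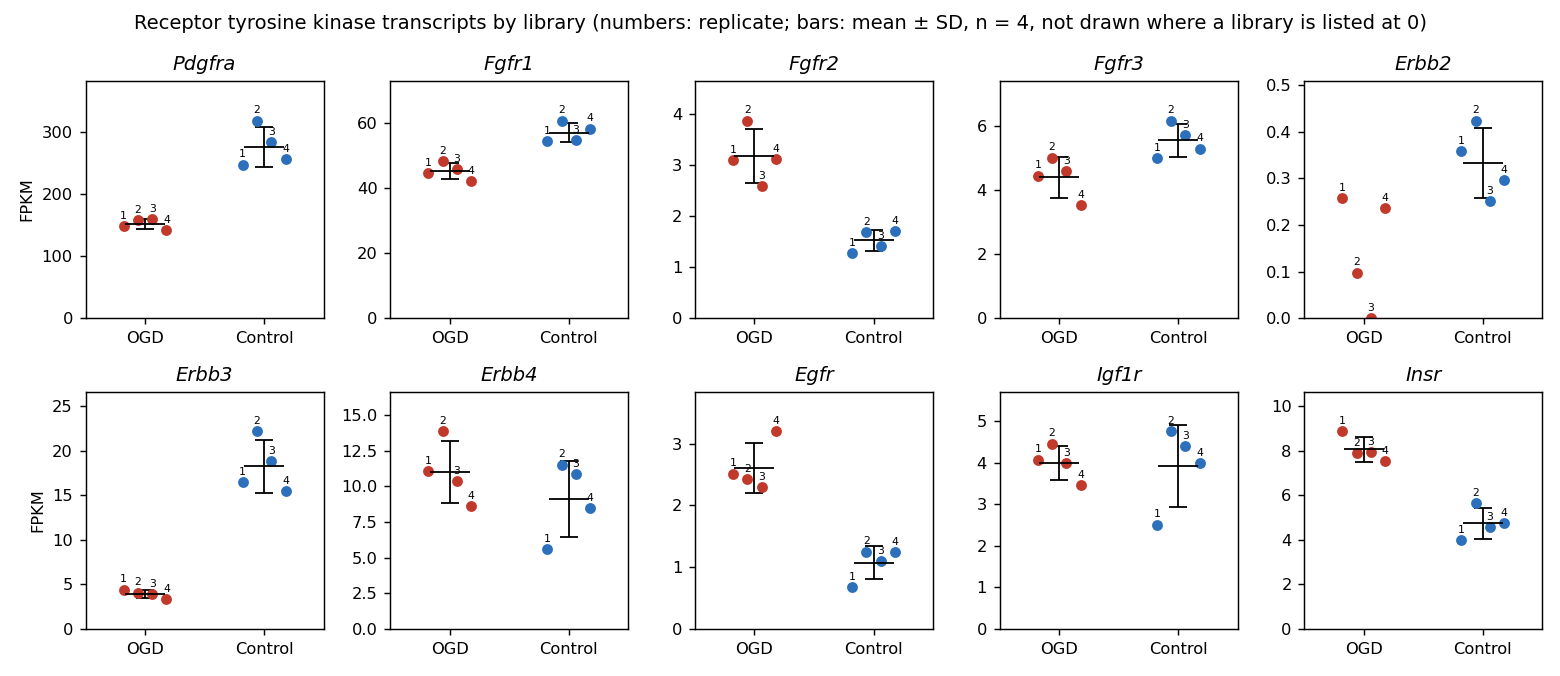
FPKM of each of the 10 receptors in 4 OGD and 4 control libraries (vertical axes start at 0; points are libraries, numbered by replicate; bars are mean ± SD where no library is listed at 0). The OGD points of Pdgfra, Fgfr1 and Erbb3 all lie below the control points, those of Fgfr2, Egfr and Insr all lie above, and the groups overlap for Fgfr3, Erbb2, Erbb4 and Igf1r.

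Marker genes of the cell types in the cultures were read in the same libraries. Among all tested rows 22.7% were called higher and 26.8% lower, which is the background of the counts below. Of 11 tested precursor markers other than Pdgfra, 6 fell and 0 rose, with a median log2 change of -0.33, and the summed level of the list was 1565 to 1850 FPKM in OGD and 2364 to 2495 FPKM in control libraries. Of 8 tested genes of maturing oligodendrocytes 6 fell and 1 rose, with sums of 349 to 408 FPKM in OGD and 619 to 808 FPKM in control libraries. Of 11 tested microglial markers, which include Csf1r, 10 fell and 0 rose, and their sum was 65.0 to 119.7 FPKM in OGD and 201 to 331 FPKM in control libraries. Of the 10, Cx3cr1 and Ptprc met the filter through the control libraries alone, so their falls are no support for that count. Of 8 tested astrocyte markers 3 fell and 0 rose, with sums of 168 to 176 FPKM in OGD and 178 to 193 FPKM in control libraries, and 1 of the 3, Gfap, met the filter through the control libraries alone. Of 9 tested neuronal markers 2 rose and 3 fell. The sum of the neuronal list was 270 to 349 FPKM in OGD and 280 to 344 FPKM in control libraries. Of this list, Slc17a7 was listed at 0 throughout. All 9 vascular and stromal markers that matched a row stayed under the filter, with sums of 0.0801 to 0.291 FPKM in OGD and 0.172 to 0.297 FPKM in control libraries, and Cldn5, Emcn, Rgs5 and Dcn were listed at 0 throughout. The part of these shifts in the changes of the receptors was not tested.

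Erbb3 (ENSRNOG00000004964) had the largest change of the set. It was at 4.42, 4.09, 3.88 and 3.31 FPKM in OGD replicates 1 to 4, against 16.5, 22.2, 18.9 and 15.5 FPKM in control replicates 1 to 4. The groups were far apart, with the highest OGD library well under the lowest control library. The mean was 3.93 ± 0.465 FPKM in OGD and 18.3 ± 2.98 FPKM in control libraries (SD, n = 4 each), 4.65-fold lower in OGD. On the log2 scale it fell by 1.96 ± 0.12 (SE; adjusted p = 7.52e-07 by limma). It was the 9th lowest log2 change of the 11149 tested rows.

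Erbb4 (ENSRNOG00000014248), the other neuregulin receptor and one with an active kinase, was at 11.1, 13.9, 10.4 and 8.61 FPKM in OGD replicates 1 to 4 and at 5.61, 11.5, 10.8 and 8.46 FPKM in control replicates 1 to 4. The groups overlapped, and control replicate 1 was the lowest. The log2 change was 0.27, with a 95% interval from -0.16 to 0.70 (limma, adjusted p = 0.269). Without control replicate 1 the log2 change was 0.08 (limma, adjusted p = 0.689).

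Egfr (ENSRNOG00000004332) had the largest rise of the set. It was at 2.52, 2.42, 2.30 and 3.20 FPKM in OGD replicates 1 to 4, against 0.683, 1.25, 1.10 and 1.25 FPKM in control replicates 1 to 4. Every OGD library was above every control library, with OGD replicate 4 the highest and control replicate 1 the lowest. The means were 2.61 ± 0.405 and 1.07 ± 0.268 FPKM in OGD and control libraries (SD, n = 4 each), a ratio of 2.44, or 0.80 ± 0.14 on the log2 scale (SE; adjusted p = 7.60e-04 by limma).

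Erbb2 (ENSRNOG00000006450), the ligand-less partner of the other ErbB receptors, was the lowest of the set in both groups. It was at 0.257 and 0.0975 FPKM in OGD replicates 1 and 2, listed at 0 in OGD replicate 3 and at 0.236 FPKM in OGD replicate 4. In control replicates 1 to 4 it was at 0.358, 0.423, 0.251 and 0.296 FPKM. The groups overlapped narrowly, at OGD replicate 1 and control replicate 3. A listed 0 can stand for an estimate that failed, since genes used by most cells (Hprt1, Ndufa1 and Rps6) were at 0 in all libraries. Erbb2 differs from these, being at 0 in OGD replicate 3 alone. Whether that 0 came from few fragments or from a failed estimate was not tested. With no filter on low values the log2 change of Erbb2 was -0.22 (limma, adjusted p = 0.0764).

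The make-up of the ErbB family in each library followed from these values. Erbb3 held 24.2%, 20.0%, 23.4% and 21.6% of the family's summed FPKM in OGD replicates 1 to 4, against 71.3%, 62.7%, 60.8% and 60.8% in control replicates 1 to 4. Erbb4 held 61.8% ± 4.83 in OGD and 31.2% ± 4.73 in control libraries (SD, n = 4 each). Erbb4 was thus the most abundant ErbB transcript in all 4 OGD libraries and Erbb3 in all 4 control libraries. Egfr held 15.1% ± 3.95 in OGD and 3.73% ± 0.822 in control libraries. The family's sum was 15.4 to 20.5 FPKM in OGD and 23.1 to 35.4 FPKM in control libraries. The ratio of Erbb4 to Erbb3 was 2.50 to 3.39 in OGD and 0.340 to 0.573 in control libraries. A ratio within a library does not depend on how the library was scaled. No test was made on shares or ratios.

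**Figure D2:**
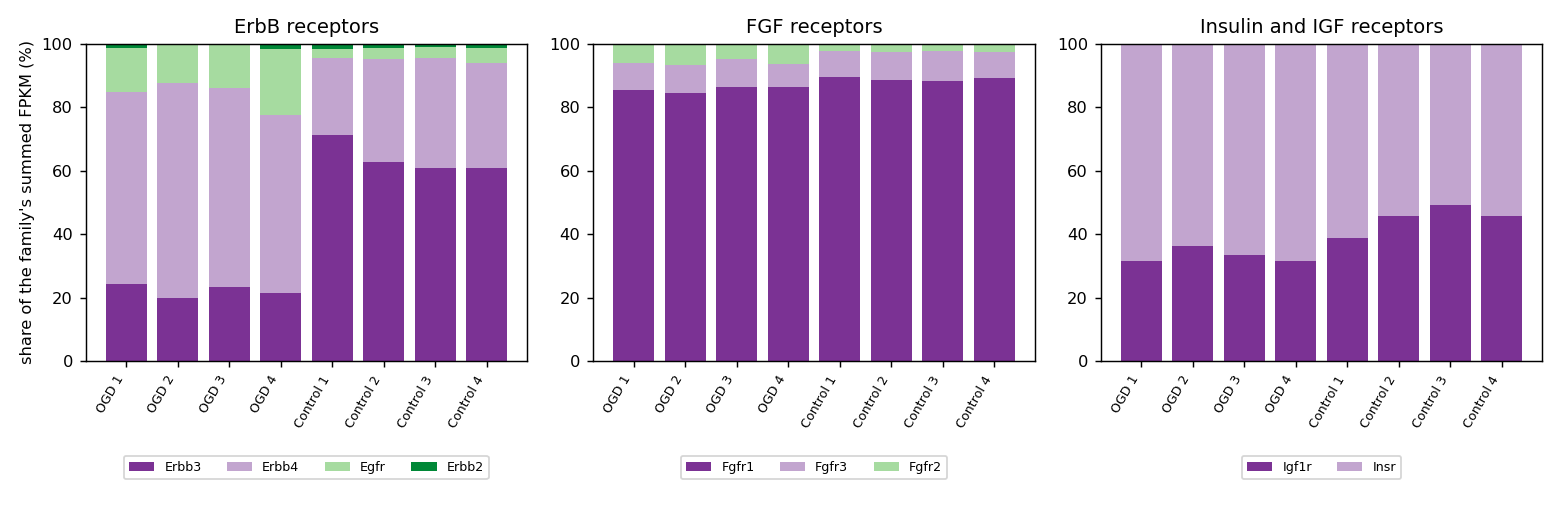
Share of each receptor in the summed FPKM of its family (vertical axis, percent) in OGD replicates 1 to 4 and control replicates 1 to 4, for the ErbB receptors, the FGF receptors and the insulin and IGF receptors. Erbb3 averaged 22.3% of the ErbB sum in OGD and 63.9% in control libraries, while Fgfr1 held 84.5% or more of the FGF receptor sum in every library.

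Pdgfra (ENSRNOG00000002244) was the most abundant receptor of the set in both groups. It was at 148, 157, 159.5 and 142 FPKM in OGD replicates 1 to 4, against 247, 318, 283 and 256 FPKM in control replicates 1 to 4. The groups did not overlap, and the OGD libraries lay closer together than the control libraries. Its mean was 152 ± 8.22 FPKM in OGD and 276 ± 31.9 FPKM in control libraries (SD, n = 4 each), 1.82-fold lower in OGD. The log2 change was -0.85 ± 0.08 (SE, limma adjusted p = 2.09e-05). Pdgfra alone held 63.6% to 66.2% of the summed FPKM of the 10 receptors in OGD and 72.0% to 73.5% in control libraries. The sum of all 10 was 217 to 247 FPKM in OGD and 338 to 433 FPKM in control libraries.

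Among FGF receptors, Fgfr1 (ENSRNOG00000016050), the main receptor of the family in these cells by level, was at 44.6, 48.4, 45.9 and 42.2 FPKM in OGD replicates 1 to 4, against 54.4, 60.8, 54.8 and 58.3 FPKM in control replicates 1 to 4. It fell by a smaller step than Pdgfra, with no overlap between groups, and its log2 change was -0.33 ± 0.07 (SE, limma adjusted p = 0.00186). Fgfr2 (ENSRNOG00000016374), which precursors gain more of as they mature, went the other way. It was at 3.10, 3.87, 2.59 and 3.12 FPKM in OGD replicates 1 to 4, against 1.28, 1.69, 1.42 and 1.71 FPKM in control replicates 1 to 4. All OGD libraries were above all control libraries, the ratio of means was 2.08, and the log2 change was 0.72 ± 0.13 (SE, limma adjusted p = 8.51e-04). Fgfr3 (ENSRNOG00000016818), which astrocytes also express, was at 4.45, 5.01, 4.58 and 3.52 FPKM in OGD replicates 1 to 4 and at 5.00, 6.16, 5.72 and 5.29 FPKM in control replicates 1 to 4. Only OGD replicate 2 reached the range of the control libraries. Its log2 change of -0.28 (95% interval -0.53 to -0.04) did not pass (limma, adjusted p = 0.0528), and 5 of 17 alternatives put it under the threshold, among them leaving out OGD replicate 2 (limma, adjusted p = 0.0359) and control replicate 1 (limma, adjusted p = 0.0476).

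Fgfr1 stayed the largest part of the FGF receptor sum, at 85.7% ± 0.934 in OGD and 89.0% ± 0.572 in control libraries (SD, n = 4 each). The ratio of Fgfr1 to Fgfr2 was 12.5 to 17.8 in OGD and 34.0 to 42.5 in control libraries, and that of Fgfr3 to Fgfr2 was 1.13 to 1.77 in OGD and 3.09 to 4.04 in control libraries. Neither ratio overlapped between the groups, but both restate the values above and are no further support for the calls. Fgfr1 to Fgfr2 had to be apart, since Fgfr1 was lower and Fgfr2 higher in every OGD library than in every control library.

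Insr (ENSRNOG00000029986), the insulin receptor, was at 8.87, 7.87, 7.95 and 7.52 FPKM in OGD replicates 1 to 4, against 3.97, 5.64, 4.57 and 4.76 FPKM in control replicates 1 to 4. The groups were apart. Its means were 8.05 ± 0.575 FPKM in OGD and 4.73 ± 0.693 FPKM in control libraries (SD, n = 4 each), a ratio of 1.70, and the log2 change was 0.66 ± 0.10 (SE, limma adjusted p = 4.29e-04). Igf1r (ENSRNOG00000014187), the IGF-1 receptor, was at 4.08, 4.47, 3.99 and 3.46 FPKM in OGD replicates 1 to 4 and at 2.52, 4.76, 4.40 and 4.00 FPKM in control replicates 1 to 4. All OGD values lay inside the range of the control values, of which control replicate 1 was the lowest. The log2 change was 0.04, with a 95% interval from -0.29 to 0.38 (limma, adjusted p = 0.832), and it was -0.11 without control replicate 1 (adjusted p = 0.444). The ratio of Insr to Igf1r was 2.17, 1.76, 1.99 and 2.17 in OGD replicates 1 to 4, against 1.58, 1.18, 1.04 and 1.19 in control replicates 1 to 4. These ratios did not overlap, but they restate the values above and are no further support for the rise of Insr.

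**Figure D3:**
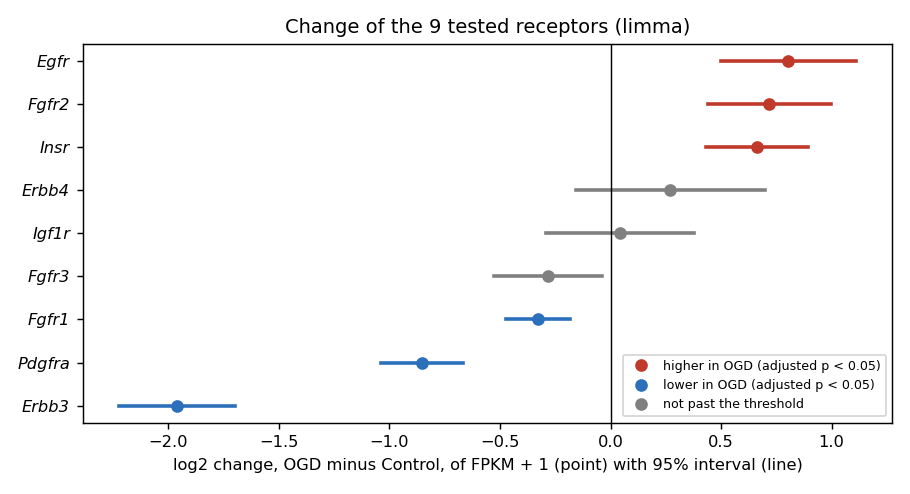
Log2 change of FPKM + 1, OGD minus control (horizontal axis), for the 9 tested receptors, with points for the estimate and lines for its 95% interval from limma, not adjusted for the number of genes. Egfr, Fgfr2 and Insr lie to the right of 0, Erbb3, Pdgfra and Fgfr1 to the left, and Erbb3 at -1.96 is the farthest from 0. The interval of Fgfr3, from -0.53 to -0.04, also lies left of 0, but Fgfr3 did not pass after adjustment.

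Without overlap between groups were 3 receptors with OGD above and 3 with OGD below, the same 6 genes that were called, where the groups were apart for 44.7% of all tested rows, 20.7% with OGD above and 24.1% with OGD below. In OGD libraries the order of mean levels was Pdgfra, Fgfr1, Erbb4, Insr, Fgfr3, Igf1r, Erbb3, Fgfr2, Egfr and Erbb2, and in control libraries it was Pdgfra, Fgfr1, Erbb3, Erbb4, Fgfr3, Insr, Igf1r, Fgfr2, Egfr and Erbb2. Erbb3 was thus 7th of 10 in OGD and 3rd of 10 in control libraries. In OGD libraries each neighbouring pair from Fgfr3 to Egfr had overlapping ranges, as did Erbb4 and Insr. In control libraries the overlapping neighbours were Erbb4 and Fgfr3, Fgfr3 and Insr, and Insr and Igf1r.

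The receptors also varied together between libraries of a group. Of the 9 tested receptors, 8 had their lowest control value in replicate 1 (Erbb3 was the exception) and 8 their highest in control replicate 2 (Fgfr2 was the exception). In the OGD group replicate 4 had the lowest value of 7 receptors. A fit without both control replicate 1 and OGD replicate 4, chosen after seeing the data, kept the same 6 calls. Nothing in the labels says that libraries of a group were separate cultures, so p-values measure the spread between these libraries, which may be technical.

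Promoter sequences show the start regions of the called receptors. RefSeq (build GRCr8, used here for sequence only, since the table's build was rn6) gave a promoter for 8 of the 10 receptors, with none for Fgfr1 and Erbb3. Shown for the 3 receptors that rose and for Pdgfra are the 250 bases before the annotated start, 5′ to 3′ on the gene's strand. Capitals mark the core letters of a hypoxia response element, ACGTG or GCGTG on either strand.
Egfr, chr14:95378376-95378625, plus strand: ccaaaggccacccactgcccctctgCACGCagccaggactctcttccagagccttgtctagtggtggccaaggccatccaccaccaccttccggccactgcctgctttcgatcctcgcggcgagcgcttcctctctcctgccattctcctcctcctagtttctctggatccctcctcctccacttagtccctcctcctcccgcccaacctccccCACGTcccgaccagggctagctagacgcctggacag
Fgfr2, chr1:194280915-194281164, minus strand: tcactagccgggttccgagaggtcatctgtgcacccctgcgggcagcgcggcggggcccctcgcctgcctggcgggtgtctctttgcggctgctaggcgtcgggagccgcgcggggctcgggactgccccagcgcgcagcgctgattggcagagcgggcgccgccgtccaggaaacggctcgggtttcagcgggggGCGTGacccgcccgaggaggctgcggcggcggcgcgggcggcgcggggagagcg
Insr, chr12:6128804-6129053, minus strand: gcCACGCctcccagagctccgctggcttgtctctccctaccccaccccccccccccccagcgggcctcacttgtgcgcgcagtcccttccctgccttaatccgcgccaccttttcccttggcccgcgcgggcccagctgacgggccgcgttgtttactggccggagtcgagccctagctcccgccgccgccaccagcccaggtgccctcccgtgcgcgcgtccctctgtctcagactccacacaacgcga
Pdgfra, chr14:33408517-33408766, minus strand: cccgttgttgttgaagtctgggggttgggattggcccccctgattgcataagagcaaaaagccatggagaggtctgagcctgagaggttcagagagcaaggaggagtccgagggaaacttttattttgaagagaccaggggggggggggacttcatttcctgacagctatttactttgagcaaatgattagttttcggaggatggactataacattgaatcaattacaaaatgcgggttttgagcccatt

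The 3 risers each held the core, 2 times in Egfr and 1 time each in Fgfr2 and Insr, while the Pdgfra window held none. The receptors that did not pass or were below the filter held it too, with 4 matches in Fgfr3, 2 in Erbb4, 6 in Igf1r (where 2 overlap) and 1 in Erbb2. Of 33469 promoters of the same length, 36.7% held at least 1 core. The windows of the members were rich in G and C, at 63.6% in Egfr, 76.8% in Fgfr2 and 71.2% in Insr, with 47.2% in Pdgfra and a median of 51.2% over all promoters. The GC box letters GGGCGG on either strand occurred in 6 of the 8 windows and in 30.5% of all promoters, and were not found in Insr and Pdgfra. The letters GTAAACA on either strand, a site of FOXO factors, occurred in 1 of the 8, Insr, where the match starts 100 bases before the annotated start, and in 3.21% of all promoters. A match is a description of letters and not of binding.

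Other receptor tyrosine kinases of the genome, with kinase-dead relatives, were read from a list of 49. Of these entries 48 matched a row and 21 were tested. Of these 8 rose, 7 fell and 6 did not pass, with a median log2 change of 0.01 beside -0.04 over all tested rows. The share called was 71.4%, beside 49.5% of all tested rows. Of the 8, Ddr2, Epha4 and Epha5 were under 1 FPKM in every control library and met the filter through the OGD libraries alone. They had to differ and are no support for the count, the share or the median. Ntrk2, the receptor of BDNF, was the highest of the list, at 99.6 ± 4.39 FPKM in OGD and 143.6 ± 14.6 FPKM in control libraries (SD, n = 4 each, limma adjusted p = 2.92e-04). Ryk, a kinase-dead receptor of Wnt proteins, was at 49.0 ± 2.78 and 41.4 ± 1.40 FPKM in OGD and control libraries (limma adjusted p = 0.00898). Ddr2, a collagen receptor, was at 2.31 ± 0.266 FPKM in OGD and 0.631 ± 0.183 FPKM in control libraries, and Epha4, an ephrin receptor, was at 1.27 ± 0.0655 FPKM in OGD and 0.185 ± 0.0753 FPKM in control libraries, given here as levels without a test. Csf1r, the receptor that microglia depend on, fell to 3.51 ± 0.621 FPKM in OGD, against 11.2 ± 2.95 FPKM in control libraries (limma adjusted p = 6.38e-05).

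Ligands of the 10 receptors, with the FGF homologues that stay inside the cell, made a list of 35, of which 34 matched and 11 were tested. Of these 3 rose, 3 fell and 5 did not pass, with a median of -0.03. The share called was 54.5%, beside 49.5% of all tested rows. Pdgfc, a PDGF that binds PDGF receptor alpha, was at 11.2 ± 0.241 FPKM in OGD and 6.71 ± 1.21 FPKM in control libraries (SD, n = 4 each; limma adjusted p = 6.23e-04). Nrg2, a neuregulin, was at 2.35 ± 0.339 and 1.18 ± 0.314 FPKM in OGD and control libraries (limma adjusted p = 0.00358). Tgfa, a ligand of EGFR, was the highest ligand, at 50.7 ± 4.45 and 47.6 ± 3.38 FPKM in OGD and control libraries, and did not pass (limma, adjusted p = 0.383). Fgf13 and Fgf12, homologues that do not act through FGF receptors in the usual way, fell by 0.53 and 0.33 on the log2 scale (limma, adjusted p = 0.00223 and 0.0259). Nrg1, the best known neuregulin of the lineage and named after its values were seen, was under the filter, at 0.175 to 0.368 FPKM in OGD and 0.118 to 0.298 FPKM in control libraries.

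Binding proteins, coreceptors and sheddases made a list of 19, of which 16 were tested. Of these 1 rose, 6 fell and 9 did not pass, with a median of -0.11. The share called was 43.75%, beside 49.5% of all tested rows. The riser was Igfbp5, an IGF-binding protein, at 3.91 ± 0.460 FPKM in OGD and 1.12 ± 0.115 FPKM in control libraries (SD, n = 4 each; limma adjusted p = 1.44e-05). Sdc3, a heparan sulfate proteoglycan that can bind growth factors, was at 97.3 ± 10.2 and 142 ± 10.1 FPKM in OGD and control libraries (limma adjusted p = 3.54e-04). Gpc2, a glypican, fell by 0.72 on the log2 scale (limma adjusted p = 6.22e-04), and Gpc1, another glypican, was at 0.06 (limma adjusted p = 0.423).

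Adaptors and relays gave 11 rises and 10 falls among 41 tested of 46 listed, with a median of -0.07. The share called was 51.2%, near the 49.5% of all tested rows. The strongest calls were falls. Pik3r3, a regulatory subunit of PI3 kinase, was at 8.45 ± 1.31 FPKM in OGD and 22.8 ± 1.44 FPKM in control libraries (SD, n = 4 each; limma adjusted p = 3.89e-06). Shc4, an adaptor of the Shc family, was at 6.38 ± 0.903 and 16.9 ± 1.56 FPKM in OGD and control libraries (limma adjusted p = 6.25e-06). Src, a kinase that many of these receptors engage, was at 66.2 ± 8.82 and 128.6 ± 5.54 FPKM in OGD and control libraries (limma adjusted p = 1.19e-05). Fyn, a Src relative with a known part in myelination, fell by 0.34 on the log2 scale (limma adjusted p = 9.97e-04). Pik3r1, the most abundant PI3 kinase regulatory subunit of the list, was at -0.16 and did not pass (limma adjusted p = 0.201).

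Inhibitors of the receptors and their relays gave 10 rises and 13 falls among 37 tested of 40 listed, with a median of -0.02. The share called was 62.2%, beside 49.5% of all tested rows. Of the 37, Trib3 met the filter through the OGD libraries alone and Inpp5d through the control libraries alone, and neither supports the counts or share. Dusp6, a phosphatase of ERK that ERK activity induces, was at 6.08, 4.69, 6.59 and 5.55 FPKM in OGD replicates 1 to 4, against 22.2, 22.9, 24.5 and 21.5 FPKM in control replicates 1 to 4. The groups did not overlap, at -1.83 ± 0.10 on the log2 scale (SE; adjusted p = 3.05e-07 by limma). Spry4, a Sprouty inhibitor of RAS-MAP kinase signalling, was at 11.0 ± 1.66 FPKM in OGD and 30.9 ± 2.44 FPKM in control libraries (SD, n = 4 each; limma adjusted p = 2.05e-06), while Spry2, a relative, was at 0.08 on the log2 scale and did not pass (limma adjusted p = 0.487). Of the other Sprouty genes, Spry1 was at -0.55 and Spry3 at 1.31 on the log2 scale (limma, adjusted p = 0.00546 and 5.03e-05). Cblb, a ubiquitin ligase that marks receptors for breakdown, was at 11.7 ± 0.434 and 6.15 ± 0.475 FPKM in OGD and control libraries (limma adjusted p = 1.78e-05). Nedd4, another ubiquitin ligase and the highest gene of the list, was at 0.03 on the log2 scale (limma adjusted p = 0.715).

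**Figure D4:**
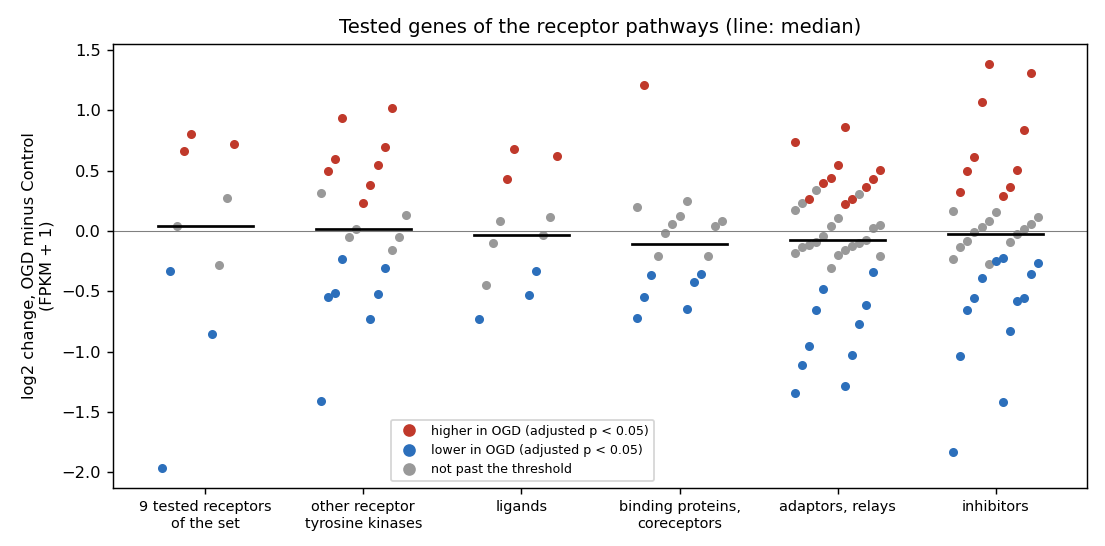
Log2 change of FPKM + 1, OGD minus control (vertical axis), of every tested gene of the receptor set and of 5 lists around it, with black lines at the medians. Each list has genes on both sides of 0, and the medians lie between -0.11 and 0.04.

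Likeness over the 8 libraries was described by Pearson's r of log2(FPKM + 1), which mostly reads the step between the groups. Only tested rows with a gene name were ranked, and rows with no symbol or a placeholder symbol were left out. The genes most like Erbb3 were Heatr5a (r = 0.998), Ino80c (0.996) and Tbc1d1 (0.995). Those most like Egfr were Xpo7 (0.992), Efnb2 (0.990) and Acvr2a (0.990), and those most like Pdgfra were Mdc1 (0.998), Pcyox1l (0.997) and Slc45a4 (0.996). The points share their libraries and their depth.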

How the data were processed

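Total RNA was purified on columns and made into strand-specific libraries, per the labels' protocols. The authors deposited 1 table of FPKM values per gene and library, per the file headers, and no fragment counts. Trimmomatic, FastQC and build rn6 (Rnor_6.0) are named in the submitters' processing notes. Aligner, FPKM estimator, annotation release and strand setting were not given in the sources used here, so values of overlapping genes are uncertain. FPKM is relative to the library's total, so a large change in abundant genes moves all others.

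The members and lists were chosen with earlier results of these data known. From the deposited FPKM, log2(FPKM + 1) of the 11149 rows with at least 1 FPKM in at least 4 libraries was tested two-sided with limma (version 3.58.1, R 4.3.3), using a trended empirical Bayes fit with group as the only term. P-values were adjusted by Benjamini-Hochberg over all rows, with a threshold of 0.05. The procedure was run on simulated data with independent noise for each gene. Such data lack variation that genes share within a library, so the run is no support for the calls. Relative depth came from low genes (up to 0.5 FPKM), whose ratios between libraries were whole within 0.01 on the log2 scale for 76.4% to 79.0%. No interval from counts could be made. No libraries held identical values. Named genes were all 10 members, and in each list the 3 tested genes with the smallest p and the 2 with the highest mean. To these came the 3 genes most like each of Erbb3, Egfr and Pdgfra. That ranking left out rows with no symbol or a placeholder symbol (starting with LOC, RGD, AABR, NEWGENE, or AC and a digit). Nrg1, Spry1, Spry3, genes listed at 0 and genes that met the filter in 1 group alone were named after their values were seen. Of 189 list entries around the receptors, 4 matched no row (Lmtk3, Egf, Crkl and Socs2). The alternatives were a pseudocount of 0.1, no filter, a filter of 5 FPKM, quantile normalization, median-centring, rescaling outside mitochondrially encoded genes, no trend, the replicate number as a block, and each library left out. Gene positions are not in the table. Promoters came from RefSeq (GRCr8). Other steps used Python 3.11.15 with numpy 2.4.6, pandas 2.3.3 and matplotlib 3.10.9.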

Additional observations from a re-analysis of the deposited data

Results flagged for a closer look

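In none of 28 groups of 4 libraries, taken over the 10 receptors and the 4 sums of receptors, did 1 library stand far from the others, where chance gives about 1.4.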

How the results depend on the processing

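The 6 calls on receptors were kept, with the same direction, under every alternative run, except that a filter of 5 FPKM left Egfr and Fgfr2 untested. With that filter the number of receptors called higher was 1, of other receptor tyrosine kinases 5, of ligands 1 and of binding proteins and coreceptors 0, since fewer genes were tested. Leaving out each library in turn left 3 receptors called higher and 3 to 4 called lower, and the log2 change of Erbb3 ran from -2.03 to -1.87 and that of Pdgfra from -0.90 to -0.78. Igf1r changed sign, from -0.11 to 0.13 over these settings and -0.06 without control replicate 1 and OGD replicate 4 together, and the cause was not tested. Fgfr3 passed with median-centring (limma, adjusted p = 0.0304) and without trend (0.0414), and among single libraries left out only without OGD replicate 2 or control replicate 1. Over all scalings the median log2 change of tested rows lay between -0.07 and -0.00212. Whether replicate numbers pair the libraries stayed unknown. The deviations of same-numbered libraries correlated at -0.22 to 0.16 across genes, and those of other pairs at -0.33 to 0.22. Of 4 OGD libraries, 1 correlated best with its own number. With 4 libraries in each group, such values cannot decide whether same-numbered libraries shared a culture or a day. With the replicate number as a block, 3 receptors were called higher and 4 lower, the fourth being Fgfr3 (limma, adjusted p = 0.0486), and 2497 rows were called higher and 3012 lower, against 2527 and 2992 without it. Low FPKM limits what can be said of Erbb2 and most ligands.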
